A study of Mus musculus with 2 samples.

Results

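Erythroid cells of the healing mouse calvarial defect were examined in single-cell RNA-seq libraries from 1 GA group and 1 Control group. A barcode was taken as an erythroid cell when the adult globin transcripts Hba-a1, Hba-a2, Hbb-bs and Hbb-bt together made up at least 5% of its UMIs (unique molecular identifiers, each counting 1 captured RNA molecule). Its S100a8 and S100a9 transcripts had to stay under 3% and its Col1a1, Col1a2 and Col3a1 transcripts under 1%, after limits of 500 to 140000 UMIs, 200 to 9500 genes and up to 15% mitochondrial UMIs. The rule found 54 of 9036 kept cells in GA and 70 of 8093 in Control, 124 of 17129 in all. The cells were thus selected on their globin level, so that level is given as a description.

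C57BL/6 mice per the labels (C57BL/6J and males of 2 months per the study's methods) received a 1.8 mm frontal bone defect. GA mice were given gambogic amide, a small-molecule TrkA agonist, by 100 µL intraperitoneal injection at 1.2 mg/kg in 10% DMSO per the labels, where the study's methods give a different dose, and Control mice the same volume of 10% DMSO, daily for 1 week from 24 h before injury. At day 7, bone of about 3 mm edge length around the defect was digested with collagenase, and the cell fractions passed through red blood cell lysis buffer, a step that removes mature red cells. Cells of 5 mice were pooled per library, and with 1 library per group no difference between groups could be tested. Intervals below are 95% intervals and cover counting error only. They are exact, except for the ratio of erythroid shares, which carries an approximate log-normal interval. The GA matrix held 9322 barcodes with 182949385 UMIs and the Control matrix 8718 barcodes with 214993030 UMIs.

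Red cells arise from Kit-positive progenitors through dividing erythroblasts that build up hemoglobin, condense their chromatin and finally expel the nucleus, leaving a reticulocyte. Gata1 and Klf1 switch on globin, heme and membrane genes, erythropoietin signals keep the early stages alive, and late cells clear mitochondria, ribosomes and much of their proteome. In the mouse this takes place in marrow and spleen, and skull bone holds marrow of its own.

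The sequences just before the transcription starts of 3 globin genes used by the rule and of Alas2, the erythroid enzyme that starts heme synthesis, are shown because the globins define the cells and Alas2 served as a check outside the rule. Each is the 250 bases before the RefSeq start on GRCm38.p6, read 5′ to 3′ along the gene, with matches on either strand in capitals. The motifs searched were AGATAA for the GATA factor core, which reads TTATCT on the other strand, CACCC for the Klf1 core, which reads GGGTG there, CCAAT for the CCAAT box, with ATTGG as its complement, and TATAA for the TATA box, which reads TTATA on the opposite strand. Hbb-bs lies at chr7:103827929-103828178 on the minus strand, Hbb-bt at chr7:103813924-103814173 on the minus strand, Hba-a1 at chr11:32283422-32283671 on the plus strand and Alas2 at chrX:150547167-150547416 on the plus strand.
Hbb-bs: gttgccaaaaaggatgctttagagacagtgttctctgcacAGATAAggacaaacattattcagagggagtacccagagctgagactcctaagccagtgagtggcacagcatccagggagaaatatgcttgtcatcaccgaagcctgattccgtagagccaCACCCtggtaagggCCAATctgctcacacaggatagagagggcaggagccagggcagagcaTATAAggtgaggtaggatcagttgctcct
Hbb-bt: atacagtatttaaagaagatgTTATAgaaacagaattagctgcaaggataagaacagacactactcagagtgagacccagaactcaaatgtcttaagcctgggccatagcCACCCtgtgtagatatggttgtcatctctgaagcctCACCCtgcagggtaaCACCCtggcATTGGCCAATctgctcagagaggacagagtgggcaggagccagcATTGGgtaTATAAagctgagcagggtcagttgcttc
Hba-a1: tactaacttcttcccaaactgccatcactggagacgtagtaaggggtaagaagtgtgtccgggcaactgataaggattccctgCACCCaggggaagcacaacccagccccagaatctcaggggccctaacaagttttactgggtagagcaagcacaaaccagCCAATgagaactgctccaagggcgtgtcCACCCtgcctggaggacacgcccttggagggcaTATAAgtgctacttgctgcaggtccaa
Alas2: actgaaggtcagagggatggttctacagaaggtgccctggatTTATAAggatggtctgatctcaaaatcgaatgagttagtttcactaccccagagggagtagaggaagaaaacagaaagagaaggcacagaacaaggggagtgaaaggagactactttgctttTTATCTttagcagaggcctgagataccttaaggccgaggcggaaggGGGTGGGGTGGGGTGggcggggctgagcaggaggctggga
The Hbb-bs window held all 4 motifs, as did 133 of 32851 RefSeq windows of this length (0.405%). Its TATAA began 29 bases and its CACCC 90 bases before the start. Hbb-bt held 3 of the motifs, with 3 CACCC matches and without AGATAA, and a pair of its CCAAT boxes on opposite strands abut in 1 run. Hba-a1 held the Klf1 core, the CCAAT box and the TATA box, and the Hba-a2 window matched it at 247 of 247 overlapping bases, whereas Hbb-bs and Hbb-bt matched at 127 of 249 (51.0%). In Alas2 the GATA and Klf1 core matches lay on the minus strand, the latter as 3 adjoining copies, and its TATA box matched on both strands. Single motifs were common in windows of this length, with AGATAA in 9.99%, CACCC in 52.0%, CCAAT in 33.8% and TATAA in 22.8%.

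The label was checked on 12 erythroid genes other than the adult globins, of which 11 were matched in the files. At least 2 of them had a UMI in 49 of 54 GA cells (90.7%, 79.7 to 96.9%) and in 68 of 70 Control cells (97.1%, 90.1 to 99.7%). Among other kept cells this held for 0.824% in GA and 1.10% in Control, although their median depth was higher, 11316 and 17734 UMIs against 5731.5 and 4603.5 UMIs in the erythroid cells. Alas2 had a UMI in 54 of 54 GA cells and 67 of 70 Control cells, against 0.690% and 1.13% of other cells. Slc4a1, the band 3 anion exchanger, was seen in 46 and 64 cells. The transcription factor genes were seen in fewer cells, Klf1 in 22 and 23 and Gata1 in 11 of each library. Kit, the stem cell factor receptor of early progenitors, had no UMI in the 54 GA cells and was detected in 2 Control cells, which at this depth speaks of detection and not of expression. By the support genes the label fitted most of the selected cells, and the exceptions are described below.

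Erythroid cells were 0.598% of kept GA cells (0.449 to 0.779%) and 0.865% of kept Control cells (0.675 to 1.09%), a ratio of 0.691 (0.485 to 0.984). This count was sensitive to the minimum of 200 genes. A further 79 GA and 140 Control barcodes met the globin, S100 and collagen limits but lay outside the cell limits, 79 and 138 of them with under 200 genes. Their median globin share was 94.4% in GA and 92.7% in Control, and their median depth 3545 and 2273.5 UMIs over 110 and 84 genes. Alas2 was detected in 75 of the 79 and 123 of the 140. Without a minimum of genes there were 133 of 9117 GA cells (1.46%, 1.22 to 1.73%) and 208 of 8233 Control cells (2.53%, 2.20 to 2.89%), a ratio of 0.577. The most globin-rich barcodes of both libraries thus lay mostly below the gene limit, and Control exceeded GA under either choice. With 1 library each, the treatment and the preparation of the library cannot be told apart.

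**Figure D1:**
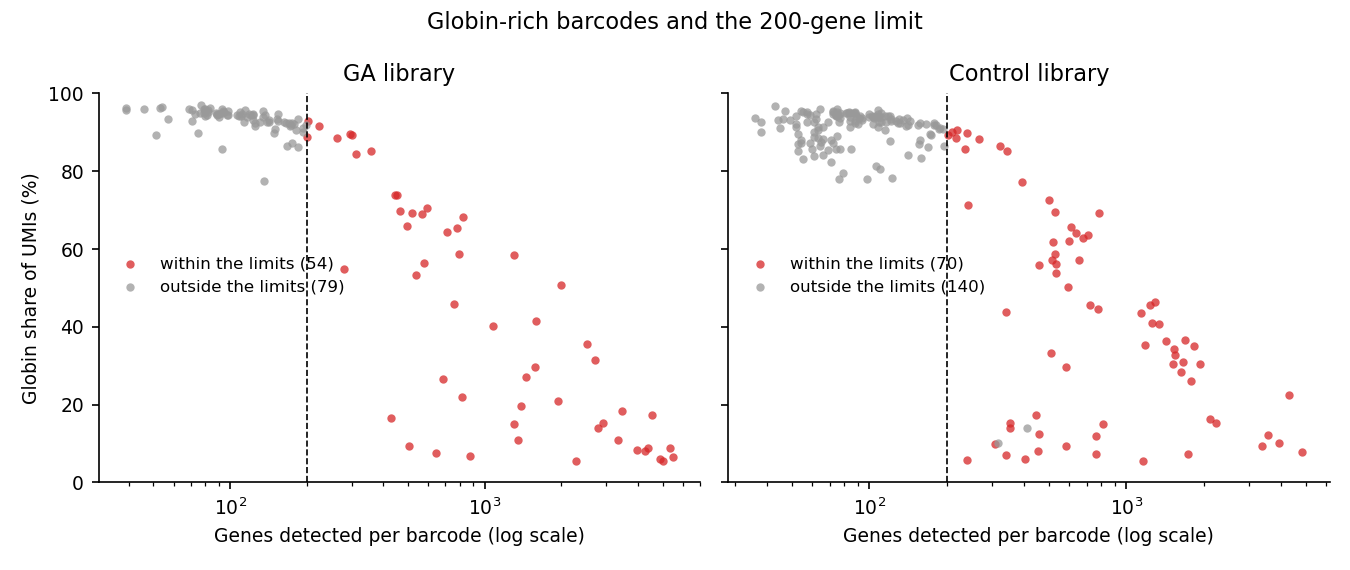
Globin share of UMIs (%) against genes detected (log axis) for every barcode meeting the globin, S100 and collagen limits, GA on the left and Control on the right; each point is 1 barcode, red within and grey outside the cell limits, and the dashed line marks 200 genes. Grey points crowd the upper left, where 79 GA and 140 Control barcodes had median globin shares of 94.4% and 92.7%.

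At the lower edge of the rule, 2 GA and 2 Control cells had globin shares of 5 to 6%, between 5.41 and 5.84%. Just outside, 3 GA cells lay between 4.13 and 4.37% and 2 Control cells between 4.38 and 4.66%, and all 5 carried at least 4 erythroid support genes. In total 28 GA and 45 Control cells below 5% globin carried at least 4 support genes. They were deep, with median depths of 45319.5 and 47123 UMIs and median globin shares of 0.945 and 0.793%, and Kit was detected in 12 and 14 of them. Car1, the early carbonic anhydrase, stood at 2323 and 2176 CPM there, whereas Alas2 stood at 70.9 and 43.7 CPM. CPM is used here for UMIs per 1000000 non-globin UMIs of the cells summed. Adding these cells gave 82 GA and 115 Control cells and a ratio of 0.639.

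Globin was sparse in most kept cells outside these. The highest share there was 26.9% in GA and 31.7% in Control. With at least 5% globin, 1 GA and 5 Control kept cells failed the S100 or collagen limits. Of the other kept cells, 24.3% in GA and 33.3% in Control held a UMI of the adult globins, with a 99th percentile of 0.124 and 0.137% of UMIs, while the erythroid cells held 85.7% and 75.5% of all globin UMIs of kept cells. The libraries shared 23 barcode sequences, of which 21 were kept in both, and no erythroid cell was among them.

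The 4 adult globins of the rule were split alike in both libraries. Hbb-bs gave 77226 UMIs in GA and 77673 in Control, 52.2 and 52.5% of the adult globin UMIs. Hba-a1 followed with 29043 and 29248 UMIs, Hbb-bt with 21452 and 20717 and Hba-a2 with 20103 and 20422. These splits are uncertain, since the Hba-a1 and Hba-a2 transcripts, and those of Hbb-bs and Hbb-bt, are near-identical copies and reads can be assigned to either. UMIs were counted per molecule without dividing by gene length, so all further levels are compared for 1 gene or list between cells. Beta over alpha globin UMIs came to 2.01 in GA and 1.98 in Control. The embryonic genes Hba-x, Hbb-bh1 and Hbb-bh2 had 0 UMIs in both libraries, which allows up to 0.000608% of the UMIs in GA and 0.000803% in Control, and Hbb-y had 1 UMI in GA. The rule itself asked for adult globin, so cells with embryonic globin alone were not selected.

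Globin share per cell ranged from 5.48 to 92.9% in GA, with a median of 37.9%, and from 5.41 to 90.7% in Control, with a median of 38.7%. Depth, chromatin-associated RNA and cell cycle transcripts varied strongly along this range, and 4 groups of cells were set apart after the values had been seen. These are ranges of a measurement and not cell types. Leukocyte-gene-bearing cells had at least 10 UMIs of 8 pan-leukocyte genes such as Ptprc and Cd74, Malat1-low cells had at most 2 UMIs of the nuclear RNA Malat1, and the remainder was divided at 20 UMIs of 20 G2 and M phase genes into G2/M-rich and G2/M-poor cells. Near these limits lay 2 cells with 5 to 19 pan-leukocyte UMIs, 10 cells with 1 to 10 Malat1 UMIs and 9 cells with 10 to 39 G2 and M phase UMIs. A limit in UMIs is passed more easily by deep cells, and the part of depth in the split by G2 and M phase genes was not tested. The list that set this split took a median of 2.04% of non-globin UMIs in G2/M-rich cells (0.888 to 4.0%). In G2/M-poor cells it took 0.250% (0 to 1.06%), and the ranges overlapped.

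G2/M-rich cells numbered 18 in GA (33.3%, 21.1 to 47.5%) and 21 in Control (30.0%, 19.6 to 42.1%). Their median globin share was 20.3 and 32.7%, over 1582 and 1535 genes, and they carried a median of 10 of the 11 support genes. G2/M-poor cells numbered 16 in GA (29.6%, 18.0 to 43.6%) and 33 in Control (47.1%, 35.1 to 59.4%), with median globin shares of 61.7 and 50.2% over 584.5 and 527 genes. Malat1-low cells numbered 11 in each library (20.4%, 10.6 to 33.5%, and 15.7%, 8.11 to 26.4%), with median globin shares of 88.4 and 88.3% over 296 and 240 genes. The leukocyte-gene-bearing cells were 9 in GA (16.7%, 7.92 to 29.3%) and 5 in Control (7.14%, 2.36 to 15.9%). Genes detected were fewer and globin higher from the first to the third group in both libraries, and the intervals of each group's share overlapped between GA and Control.

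**Figure D2:**
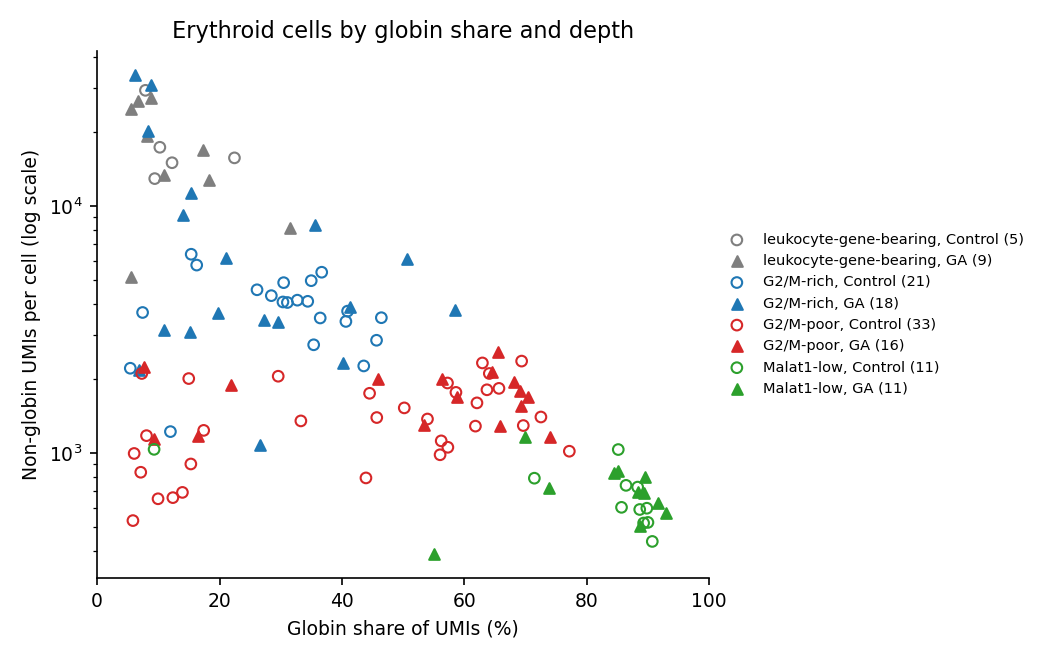
Non-globin UMIs per cell (log axis) against globin share of UMIs (%) for the 124 erythroid cells; each symbol is 1 cell, triangles GA and circles Control, coloured by group with the number of cells in the key. Depth outside globin falls from leukocyte-gene-bearing and G2/M-rich cells at the left to Malat1-low cells at the right, and the 3 deepest G2/M-rich GA cells hold 20127, 30802 and 34049 non-globin UMIs, while the highest G2/M-rich Control cell holds 6380.

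Malat1, a long noncoding RNA retained in the nucleus, set the Malat1-low cells by their 0 to 2 UMIs. The ranges of the next groups overlapped, with 10 to 149 UMIs and a median of 55 in G2/M-poor cells and 21 to 289 with a median of 107 in G2/M-rich cells. Of the 11 Malat1-low cells, 9 in GA and 10 in Control had globin shares of at least 70%. Conversely, 8 of 8 GA cells and 9 of 10 Control cells with at least 75% globin were Malat1-low. Malat1-low cells had median depths of 5705 and 5209 UMIs, of which 692 in the median over both libraries were not globin, against 1398 in G2/M-poor cells. Among the barcodes outside the cell limits, 79 of 79 in GA and 139 of 140 in Control also had at most 2 Malat1 UMIs.

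**Figure D3:**
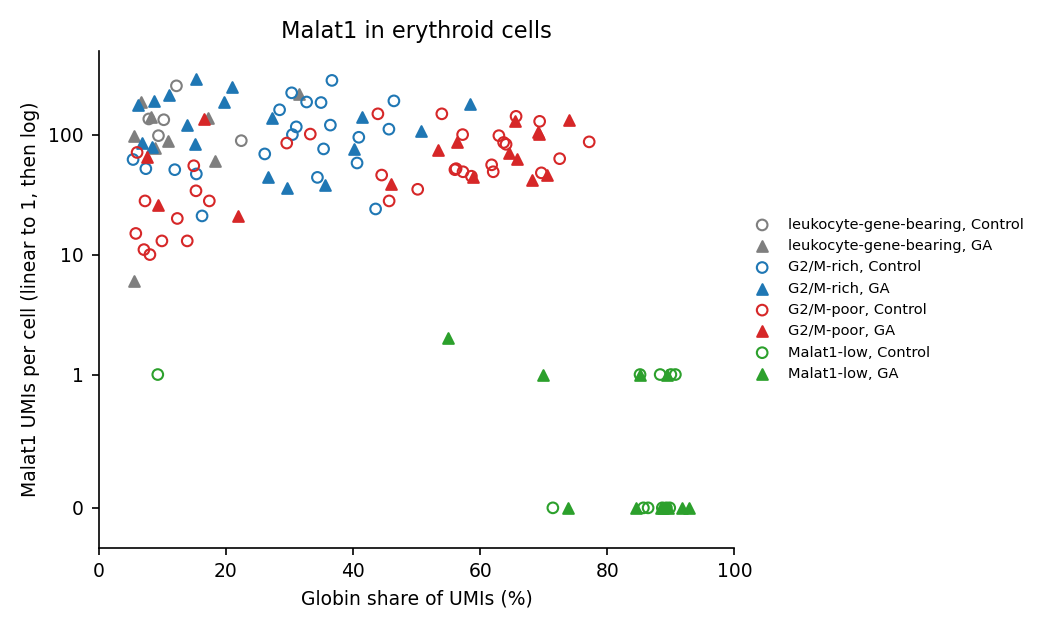
Malat1 UMIs per cell (axis linear to 1, then log) against globin share of UMIs (%) for the 124 erythroid cells, with triangles for GA, circles for Control and colours for the 4 groups. Most cells with 0 to 2 Malat1 UMIs lie above 70% globin, and a gap separates them from the other cells of 6 or more UMIs.

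Hemoglobin composition was close between the libraries within each group. Beta over alpha globin UMIs was 2.22 in GA and 2.18 in Control for G2/M-rich cells, 2.05 and 2.03 for G2/M-poor cells and 1.85 and 1.74 for Malat1-low cells. Within alpha globin, Hba-a1 took a median of 67.7% per G2/M-rich cell and 57.6% and 56.6% per G2/M-poor and Malat1-low cell, with the reservation on near-identical copies above.

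Gene lists of erythroid function were next followed over these 3 groups, both libraries summed unless stated, leaving out leukocyte-gene-bearing cells. The summed non-globin UMIs were 238050 in G2/M-rich, 73277 in G2/M-poor and 15428 in Malat1-low cells, so that 3 UMIs, the floor for a gene at 0, equal 12.6, 40.9 and 194.5 CPM.

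Heme synthesis genes took a larger share in each further group. The list took 1.23% of non-globin UMIs in GA and 1.78% in Control among G2/M-rich cells, 2.49 and 2.23% among G2/M-poor cells and 3.29 and 3.33% among Malat1-low cells. The members did not all follow the list. Alas2 stood at 1294 CPM (1153 to 1447), 5295 (4782 to 5847) and 17501 CPM (15490 to 19696) in the 3 groups. Cpox, an enzyme of the later pathway, ran the other way, from 1281 to 328 and 65 CPM (1 UMI in the last). Tmem14c, which moves heme precursors into mitochondria, stood at 2071 CPM in G2/M-rich cells and at 82 and 259 CPM in the others, from 6 and 4 UMIs. Fech, which inserts the iron, stood at 1264, 3644 and 4667 CPM. Alas2 and Fech were thus highest in Malat1-low cells and Cpox and Tmem14c in G2/M-rich cells. Per cell, Alas2 stayed at medians of 7, 9 and 11 UMIs, while the other non-globin UMIs became fewer.

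Iron genes did not share 1 course. Tfrc, the transferrin receptor, stood at 1697 CPM in G2/M-rich, 2593 in G2/M-poor and 648 in Malat1-low cells. Ftl1, the ferritin light chain, stood at 3037, 3330 and 11732 CPM (10093 to 13559 in the last). Fth1, the ferritin heavy chain, stood at 8637, 4544 and 7584 CPM (6276 to 9082 in the last) and was lowest in G2/M-poor cells. The list as a whole took 1.55, 1.43 and 2.74% of non-globin UMIs.

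Erythroid transcription factors were lowest in Malat1-low cells, where the list took 0.230% in GA and 0.184% in Control. It took 0.900 and 1.13% in G2/M-rich cells, and its share was highest in G2/M-poor cells in both libraries. Gata1 had 47 UMIs (197 CPM) in G2/M-rich cells, 3 UMIs in G2/M-poor and 0 in Malat1-low cells, where its floor of 194.5 CPM lies close to the G2/M-rich level, so that absence could not be shown. Klf1 stood at 647, 164 and 130 CPM, the last from 2 UMIs. Sox6, which helps to silence embryonic globin, was at 3453 and 5363 CPM (4847 to 5919) in the G2/M-rich and G2/M-poor cells and had 0 UMIs in Malat1-low cells, at least 17.8-fold lower than in G2/M-rich and 27.6-fold lower than in G2/M-poor cells at the floor of 3 UMIs over the group. Foxo3, a regulator of late erythroid genes, was highest in G2/M-poor cells, at 1992 CPM against 643 and 324 CPM. Among the progenitor factors, Kit and Myb had 0 UMIs in G2/M-rich cells. The list as a whole summed to 512 CPM in GA and 776 CPM in Control over the cells without leukocyte-gene-bearing ones, led by Runx1 with 96 and 100 UMIs, against 1016 and 870 CPM in other kept cells.

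Membrane and cytoskeleton genes were highest in G2/M-poor cells, at 6.28% of non-globin UMIs in GA and 5.95% in Control, against 2.45 and 4.02% in G2/M-rich and 2.05 and 2.90% in Malat1-low cells. Epb41, the protein 4.1 that ties spectrin to the membrane, stood at 1390, 11027 and 4537 CPM along the groups. Slc4a1 stood at 3604 CPM (3368 to 3853), 7137 (6541 to 7774) and 4408 CPM (3424 to 5584). Tmcc2, a coiled-coil membrane protein, went from 1063 to 14070 and 4148 CPM. Sptb, the erythroid beta spectrin chain, differed less between the first pair of groups, at 1668 and 1092 CPM, and stood at 259 CPM in Malat1-low cells.

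Erythropoietin signalling was seen in few molecules. Epor, the receptor, had 78 UMIs in G2/M-rich cells (328 CPM, 259 to 409), 10 in G2/M-poor cells (136 CPM, 65 to 251) and 2 in Malat1-low cells (130 CPM, 15.7 to 468). Bcl2l1, the survival gene downstream of the receptor, went from 80 CPM to 1883 and 1815 CPM, and Pim1, a kinase gene of the same pathway, from 202 to 1801 and 259 CPM. Between G2/M-rich and G2/M-poor cells the receptor was lower and both targets were higher in the latter, whereas the Epor interval in Malat1-low cells covered both other levels.

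Terminal maturation genes, with Ube2c also on the G2 and M phase list, took a larger share in each further group. The list took 0.826% in GA and 1.37% in Control among G2/M-rich cells (0.782 to 0.872% and 1.30 to 1.46%), 5.53 and 5.33% among G2/M-poor cells and 9.29 and 10.3% among Malat1-low cells. Bpgm, which makes the bisphosphoglycerate that lowers the oxygen affinity of hemoglobin, stood at 202 CPM (149 to 267), 5977 (5432 to 6562) and 21714 CPM (19472 to 24138). Bnip3l, needed for mitochondrial clearance, stood at 290, 2252 and 7000 CPM, and Ube2l6, a ubiquitin and ISG15 conjugating enzyme, at 328, 1583 and 5380 CPM. Xpo7, a nuclear exporter tied to chromatin condensation in erythroblasts, had its maximum in G2/M-poor cells, at 206, 13524 and 713 CPM. It was detected in 10 of 39 G2/M-rich, 46 of 49 G2/M-poor and 6 of 22 Malat1-low cells. Tent5c, a poly(A) polymerase, and Mkrn1, a ubiquitin ligase, were highest in the last group, at 7648 and 17760 CPM in Malat1-low cells.

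Antioxidant and carbonic anhydrase genes took 2.63, 3.41 and 5.79% along the groups. Gpx1, a glutathione peroxidase, stood at 4751, 12842 and 27353 CPM, whereas Prdx2, a peroxiredoxin abundant in red cells, differed less, at 5776, 5322 and 7973 CPM. Car1 had 164 UMIs in G2/M-rich cells and 1 UMI in G2/M-poor cells, while Car2 stood at 6423, 8434 and 10371 CPM.

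The G2 and M phase list was used to set the groups and carries no further information on them. The S phase list, not used in this way, took 0.590% of non-globin UMIs in G2/M-rich cells, 0.0355% in G2/M-poor and 0.0972% in Malat1-low cells, or 0.0417% in the last from 6 UMIs without the Malat1-low Control cell of 9.30% globin. Pcna, the replication clamp, had 151 UMIs in 19 G2/M-rich cells and 2 UMIs elsewhere in these groups. After every cell was thinned to 1000 UMIs, in 1 random draw, cells with UMIs of at least 2 genes of the G2 and M phase list were 22 of 53 in GA (41.5%, 28.1 to 55.9%) and 34 of 65 in Control (52.3%, 39.5 to 64.9%), with 1 and 5 shallower cells left out. Unthinned shares were 79.6 and 71.4%. The order of the libraries thus changed between settings, and none is read from it.

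Ribosomal protein genes were lowest in G2/M-poor cells, with 0.440% in GA (0.366 to 0.526%) and 0.410% in Control (0.354 to 0.473%). Malat1-low cells held 2.08 and 2.11%, but 1 Control cell of 9.30% globin, with 580 genes and 0 Alas2 UMIs, gave most of the latter, and without it the Control value was 0.762% (0.566 to 1.00%). In G2/M-rich cells the libraries stood apart, at 5.10% (4.99 to 5.21%) in GA and 1.85% (1.75 to 1.94%) in Control, and the cells behind this are given below. Interferon response genes were led by Rsad2, an antiviral enzyme, which stood at 466, 5199 and 4472 CPM along the groups, and by Isg15, a ubiquitin-like protein, at 340, 2265 and 5509 CPM.

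**Figure D4:**
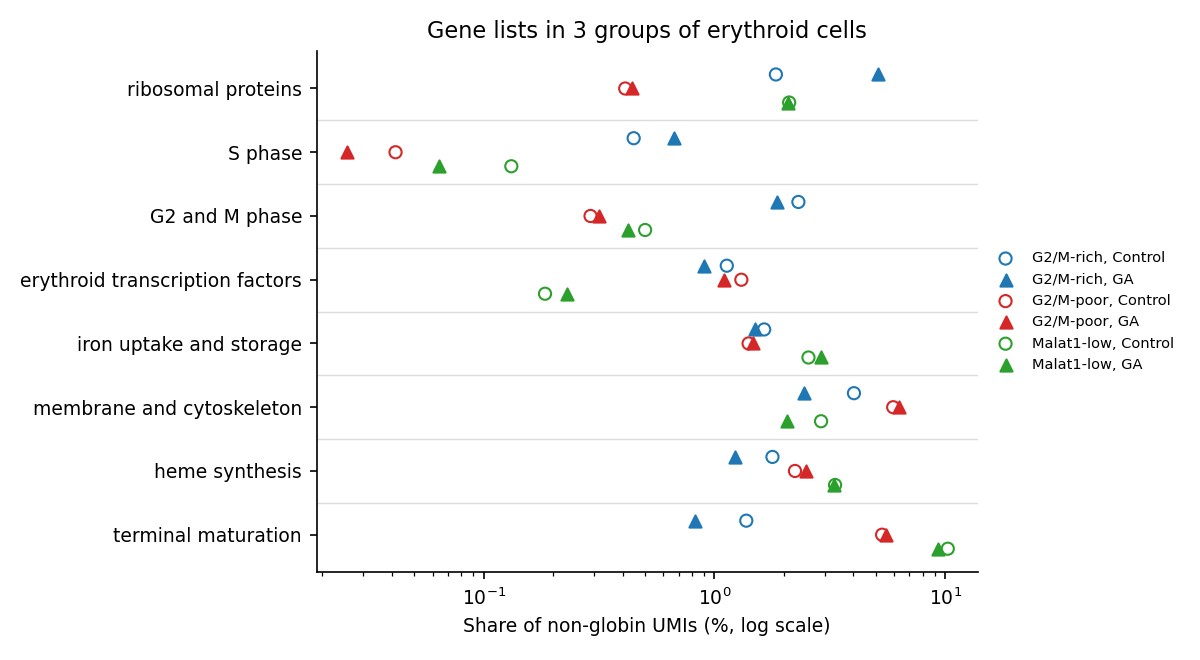
Share of non-globin UMIs (%, log axis) held by 8 gene lists in G2/M-rich, G2/M-poor and Malat1-low erythroid cells, each symbol being 1 library's summed cells, triangles for GA and circles for Control. Terminal maturation and heme synthesis genes increase from G2/M-rich to Malat1-low cells, membrane genes are highest in G2/M-poor cells, and the ribosomal protein list separates GA (5.10%) from Control (1.85%) in G2/M-rich cells.

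Some G2/M-poor cells had little globin. Of this group, 4 in GA and 11 in Control had globin shares under 25%, with a median depth of 1256 UMIs. Their summed share of membrane and cytoskeleton genes was 6.39% near the whole group's values, and of ribosomal protein genes 0.269%, below the whole group's 0.440 and 0.410%. They carried a median of 5 support genes. Their mitochondrial share of UMIs had a median of 3.29% and reached 12.6%, against 1.07% and at most 3.09% in the other G2/M-poor cells, and its part in these values was not tested.

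Genes with at least 100 UMIs in the erythroid cells were compared with all other kept cells. Of 1038 such genes, 421 (40.6%) were higher by more than 1 log2 unit in erythroid cells of both libraries. As a summed level relative to non-globin UMIs, the highest ratios were in Slfn14, an RNA-cleaving Schlafen protein, with log2 values of 10.59 in GA and 11.49 in Control, and Alas2, with 10.58 and 11.13. Apol11b, Sowaha, Slc4a1, Trim10 and Epb42 were among those that followed, all above 9 in both libraries, and Rhd, Kel and Rhag, which carry blood group antigens or support them, were also among the first 20. Here 21 of 21 membrane and 18 of 18 terminal maturation genes with 100 UMIs or more exceeded 1 log2 unit in both libraries. Of ribosomal protein genes, 0 of 20 did. Members of the full lists of 25 membrane and 21 terminal maturation genes with fewer UMIs in erythroid cells did not enter these counts. These ratios describe cells chosen for their globin and are not tests. The non-globin genes with most UMIs were Malat1 (9653 UMIs), Gm42418, which overlaps ribosomal RNA repeats (9510), and mt-Co1 (5528), followed by other mitochondrial genes and the ferritin heavy chain gene Fth1 (4244).

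The leukocyte-gene-bearing cells went against the label in part. They held 44.6% of the non-globin UMIs of the erythroid cells in GA and 40.0% in Control, with median depths of 20313 and 19278 UMIs over 4242 and 3938 genes. Macrophage genes were the most abundant of 3 leukocyte lists in 5 GA and 4 Control cells, B cell genes in 3 and 0, and neutrophil genes in 1 and 1. At most 4 of the 11 support genes were seen in 7 of 9 and 5 of 5 of these cells, although their median depth was the highest of the 4 groups. Their membrane gene share had a median of 0.113%, against 3.88% per G2/M-rich cell, while globin still took 8.87% in GA and 10.2% in Control. Ptprc, the common leukocyte antigen, was in 8 and 5 of them, and C1qa, a complement gene of tissue macrophages, in 4 and 3. Whether these barcodes held more than 1 cell was not tested. Scrublet, a doublet caller, marked 0 GA and 32 Control barcodes at its automatic threshold. When the top scores were removed at 0.8% per 1000 barcodes, 5 of the 9 GA cells and 0 of the 5 Control cells were among them.

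Marker lists of other cell types were then read without these cells. In the remaining 45 GA and 65 Control cells, the pan-leukocyte list summed to 178 and 126 CPM against 4909 and 3395 CPM in other kept cells. This list had set the removed cells apart, so its low sum follows from the split. The macrophage list summed to 225 and 384 CPM, led by Lyz2, and the B cell list to 62.7 and 66.5 CPM. Neutrophil genes summed to 1656 CPM in GA and 724 CPM in Control, led by S100a9 in GA and S100a8 in Control, against 97357 and 27775 CPM in other kept cells. T and NK genes summed to 5.22 and 0 CPM and endothelial genes to 5.22 and 7.39 CPM. Mesenchymal genes summed to 731 and 1633 CPM, against 32029 and 49008 CPM in other cells. The rule capped S100a8, S100a9, Col1a1, Col1a2 and Col3a1, so the neutrophil and mesenchymal sums were limited by the selection itself. Neutrophil genes were thus higher in GA, and mesenchymal genes in Control, both in the erythroid cells and in the other cells of the library, and the part of these transcripts in the comparisons that follow was not tested.

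GA and Control were then compared gene by gene over the summed erythroid cells. Of 1038 genes with at least 100 UMIs, 93 were higher by over 1 log2 unit in GA (8.96%) and 85 lower (8.19%). Without the leukocyte-gene-bearing cells, 101 of 600 were higher (16.8%) and 50 lower (8.33%). Among genes with at least 20 UMIs, 51.6% of 4517 had a ratio above 0, or 51.3% of 2449 without those cells, and these are the shares against which list counts are read below.

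Some genes at both ends of the ratio came mostly from a few cells. Ighm, the immunoglobulin heavy chain, had the highest ratio (log2 4.60, 3.01 to 6.89), with 103 of its 111 GA UMIs in 5 cells. Apoe, a lipid carrier of macrophages, followed the same course, at log2 2.02 with 944 of 972 UMIs in 5 cells, and turned to -1.24 without leukocyte-gene-bearing cells. At the other end, Fn1 stood at -3.24, Spp1 at -2.54 and Cst3, a protease inhibitor of myeloid cells, at -2.41, the last with 632 of its 637 Control UMIs in 5 cells and at 3.95 without the 5 cells with the most UMIs of each library. Erythroid genes among the extremes were Car1 (1.68, 1.08 to 2.32), seen in 7 GA and 6 Control cells, and Slfn14 (-1.79, -2.27 to -1.33), seen in 25 and 42 cells. Car1 turned to -0.28 without the leukocyte-gene-bearing cells and the 5 deepest further cells of each library, and to -0.46 at a globin minimum of 2%.

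By list, 20 of 20 ribosomal protein genes had a ratio above 0, with a median of 1.13, and 19 of 19 S phase genes, with a median of 0.83. Terminal maturation genes were above 0 in 0 of 20, with a median of -0.77, membrane genes in 1 of 24 (-0.36) and heme synthesis genes in 3 of 15 (-0.60). At a globin minimum of 2% these medians turned to 0.0074, 0.41 and 0.23, and that of ribosomal protein genes was 0.0033. The transcription factors were above 0 in 6 of 16 (-0.19), G2 and M phase genes in 8 of 20 (-0.13), and Epo receptor signalling genes in 1 of 7 (-1.12). Without leukocyte-gene-bearing cells, the Epo receptor signalling list was above 0 in 0 of 4 genes (-0.82). Interferon response genes were above 0 in 7 of 13 (0.58), but in 0 of 5 (-1.03) without leukocyte-gene-bearing cells. The median over all 4517 genes was 0.03.

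These ratios rested on few cells. Outside the leukocyte-gene-bearing cells, the 5 deepest GA cells were all G2/M-rich, with 36272, 33760, 21959, 13303 and 12984 UMIs, and 6.47, 9.01, 7.74, 4.96 and 2.44% of their non-globin UMIs were of the ribosomal protein list. They held 54.6% of the non-globin UMIs of the 45 GA cells, 88.6% of their ribosomal protein UMIs and 82.0% of their S phase UMIs. The 5 deepest Control cells, at 8523 down to 7040 UMIs, held 17.7, 33.4 and 19.2%. In the cells that remained, ribosomal protein genes took 1.09% in GA (40 cells) and 1.11% in Control (60 cells). Per cell, the median ribosomal share was 0.716% over the 45 GA cells and 0.553% over the 65 Control cells, within ranges of 0.0323 to 9.01% and 0 to 10.6%.

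Without the leukocyte-gene-bearing cells and the 5 deepest further cells of each library, 2 of 371 genes were higher in GA by over 1 log2 unit (0.539%) and 0 lower (0%). The list medians moved to -0.06 for ribosomal protein, -0.37 for S phase, -0.12 for terminal maturation, -0.05 for heme synthesis and 0.04 for membrane genes. Among G2/M-poor cells alone, 0 of 145 genes passed 1 log2 unit either way (0%), and the medians were 0.04, 0.10, 0.28 and 0.10 for ribosomal protein, terminal maturation, heme synthesis and membrane genes, with too few UMIs for S phase. Among G2/M-rich cells alone, 90 of 416 genes were higher (21.6%) and 19 lower (4.57%), with a ribosomal protein median of 1.34 and a terminal maturation median of -0.86. Genes past 1 log2 unit were thus found among G2/M-rich cells and not among the 145 genes tested in G2/M-poor cells at this depth. In the G2/M-rich GA cells, however, the 5 deepest held 104592 of 156090 non-globin UMIs. This group was not compared on its own without them, and Malat1-low cells were not compared gene by gene.

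Single erythroid genes were read in the same groups. Alas2 gave 521 UMIs in GA and 566 in Control, a log2 ratio of -0.73 (-0.91 to -0.56) over all cells, -0.82 in G2/M-rich cells and 0.01 (-0.30 to 0.31) in G2/M-poor cells. Slc4a1 gave 692 and 808 UMIs, at -0.84 over all cells, -0.92 in G2/M-rich and -0.08 (-0.35 to 0.18) in G2/M-poor cells. Xpo7 gave 438 and 660 UMIs, at -1.21, -2.25 and 0.05 (-0.14 to 0.23). Rplp0, a ribosomal stalk protein, gave 1126 and 343 UMIs, at 1.10, 1.20 and 0.42 (-0.51 to 1.32). For each of these genes the G2/M-poor interval included 0. G2/M-poor cells made up 29.6% of erythroid cells in GA and 47.1% in Control, with overlapping intervals. The part of these proportions in the ratios over all cells was not tested. Of 17 named genes with at least 20 UMIs in G2/M-poor cells, the interval included 0 in 12 and lay off it in 5. Some of these genes, Slfn14 and Tbcel among them, were named for an extreme ratio over all erythroid cells. The same count over all genes of G2/M-poor cells is not given, so none is read from this one. Slfn14 stood at -0.76 (-1.32 to -0.22), from 39 GA and 110 Control UMIs, and Tbcel at -0.53 (-1.06 to -0.03). Tmcc2 stood at 0.26 (0.08 to 0.44) and Tfrc at 0.43, with a lower bound just above 0. Isg15 was lower in GA over all cells (-0.67, -0.96 to -0.38) and higher among G2/M-poor cells (0.95, 0.49 to 1.41), where 89 GA UMIs came from 9 cells and 77 Control UMIs from 19 cells.

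**Figure D5:**
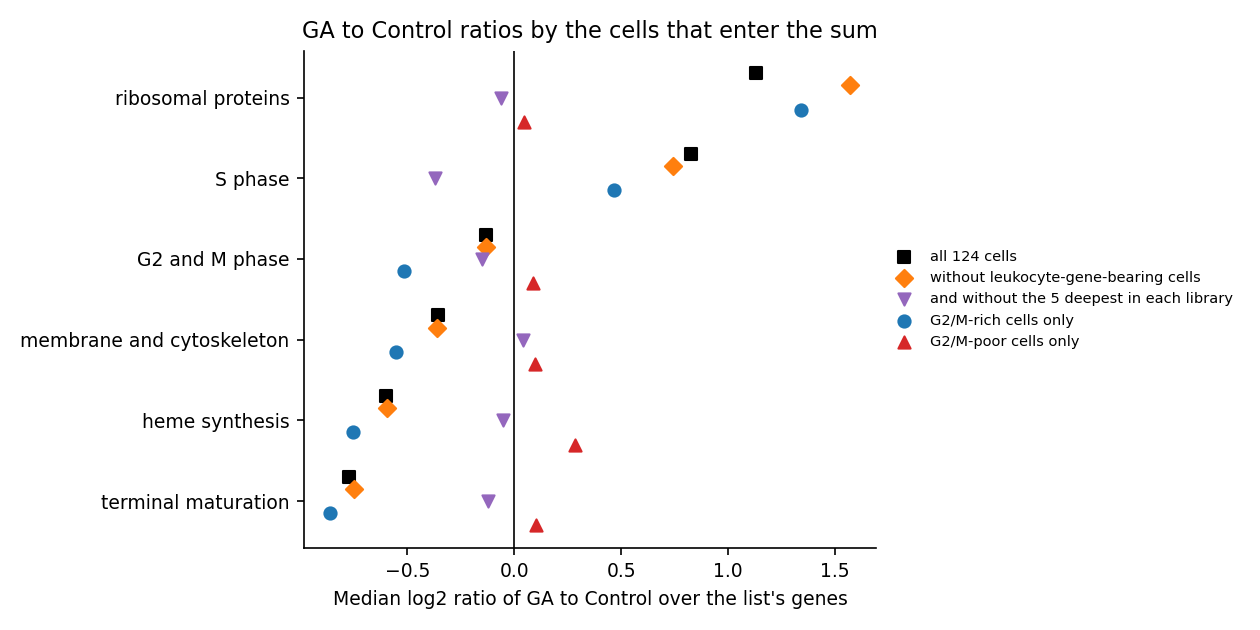
Median log2 ratio of GA to Control for 6 gene lists, each marker standing for 1 choice of cells (squares all 124, diamonds without leukocyte-gene-bearing cells, inverted triangles also without the 5 deepest of each library, circles G2/M-rich only, triangles G2/M-poor only). Ribosomal protein medians run from 1.13 and 1.57 down to -0.06 and 0.04, and terminal maturation medians from -0.77 up to -0.12 and 0.10, once the deep cells are left out or G2/M-poor cells are taken alone.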

How the data were processed

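Single-cell RNA-seq was measured in 1 GA and 1 Control library. The authors deposited counts, UMIs per gene and barcode, made with Cell Ranger 7.0.1 per the file headers on mm10 per the submitters' notes, with no normalization. Cells were selected by the stated limits on UMIs, genes and mitochondrial, globin, S100 and collagen shares. The members and gene lists were chosen with earlier results of these data known, and the 4 groups of cells after seeing their values. UMIs were summed per library and group and divided by the non-globin total. Log2 ratios of GA to Control carry exact conditional binomial intervals, shares Clopper-Pearson intervals and the ratio of shares a log-normal interval. A gene counted as higher or lower past 1 log2 unit with at least 100 UMIs over the cells, and entered list medians with at least 20. Named genes were the members of 25 lists (326 of 328 symbols matched), the 10 highest and 10 lowest ratios among genes in 10% of cells, the 15 with most UMIs and the 20 highest over other cells. Scripts ran in Python 3.11.15 with scipy 1.17.1 and scanpy 1.11.5, and were tested on simulated data. Promoters are from RefSeq. No columns were left unused. Some genes of the rule are not reported here.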

Additional observations from a re-analysis of the deposited data

How the results depend on the processing

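The share of erythroid cells in GA over Control stayed between 0.577 and 0.731 in all 10 alternatives. The counts of genes past 1 log2 unit (93 higher, 85 lower) and the list medians depended on which cells entered. A globin minimum of 10% gave 43 higher and 28 lower genes and medians of -0.11 for membrane, -0.30 for terminal maturation, 0.39 for S phase and 0.89 for ribosomal protein genes, with Cst3 at 1.23. A minimum of 2% gave 32 higher genes and medians of 0.23 for heme synthesis, 0.41, 0.0074, 0.27 and 0.0033 for membrane, terminal maturation, S phase and ribosomal protein genes, with Dut at -0.15 and Car1 at -0.46. Without the top Scrublet scores the medians were -0.13 for membrane, -0.54 for terminal maturation and 1.28 for ribosomal protein genes, and Apoe stood at -0.13. With at least 2 support markers required, the ribosomal protein median was 0.97 and Cxcl2 stood at 0.59. CPM over all UMIs gave 158 higher and 40 lower genes and medians of -0.14, -0.56 and 1.35 for membrane, terminal maturation and ribosomal protein genes. Without the 5 cells with most UMIs per library the medians were -0.76 for heme synthesis, -0.093 for S phase and -0.73 for G2 and M phase, 1.59 for the single megakaryocyte gene Pf4, 0.0069 for Fn1, 3.95 for Cst3, 3.27 for Cxcl2 and 4.85 for Ahnak. Thinning cells to 1000 non-globin UMIs gave 5 higher and 0 lower genes, medians of -0.24, -0.38, -0.30 and 0.63 for membrane, terminal maturation, S phase and ribosomal protein genes, and 0.035 for Cxcl2. A gene minimum of 50 UMIs gave 200 higher and 178 lower genes, and of 200 UMIs 29 lower genes.

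The share of cells with UMIs of at least 2 G2 and M phase genes was 60.0% in GA and 56.9% in Control when thinned to 2000 UMIs, and 79.6 and 71.4% in GA and Control unthinned. Without leukocyte-gene-bearing cells, thinning to 2000 UMIs gave 65.9% in GA and 69.8% in Control. At least 4 support markers were held by 77.8% of GA and 85.7% of Control cells.

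The following alternatives were added after seeing the data. Without leukocyte-gene-bearing cells, 50 genes were lower, the ribosomal protein median was 1.57, Apoe stood at -1.24, and 100% of Control cells had at least 2 support markers. With no minimum of genes, the median globin share was 91.7% in GA and 89.5% in Control. G2/M-rich cells alone gave 19 lower genes, medians of -0.75 for heme synthesis, 0.47 for S phase, -0.52 for G2 and M phase and 1.34 for ribosomal protein genes, and Apoe at -1.93. G2/M-poor cells alone gave 0 higher and 0 lower genes, medians of 0.28, 0.10, 0.10 and 0.044 for heme synthesis, membrane, terminal maturation and ribosomal protein genes and 0.22 for Epo receptor signalling, with Xpo7 at 0.046, Tmcc2 at 0.26 and Rsad2 at 0.035. Without leukocyte-gene-bearing cells and the 5 deepest further cells, 2 genes were higher and 0 lower, with medians of -0.051, 0.042, -0.12, -0.37 and -0.060 for heme synthesis, membrane, terminal maturation, S phase and ribosomal protein genes, Apoe at -0.23, Car1 at -0.28, Pcna at -0.0034 and Rplp0 at -0.00058. The cause of these changes was not tested beyond the fewer cells and UMIs that enter. Of 169 values of the 15 main results, 108 stayed within the 95% interval of the value reported (for counts of genes, within 1.5 times), 60 left it, and 1, a value past 1 log2 unit, changed sign, as did 2 values past that limit among other lists and 20 among genes. Counting any change of sign, 15 of 95 values of the main list medians, 35 of 213 of other list medians and 61 of 529 of gene ratios turned.

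No paired analysis was possible because each group is 1 library, and there was no replicate to leave out. The depth of the erythroid cells limits genes with few UMIs, above all in Malat1-low cells. The study's pipeline removed doublets with Scrublet, which here marked 0 GA and 32 Control barcodes automatically.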
